A study of Mus musculus with 13 samples.

Results

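The miRNAs described here are mmu-miR-211-5p and mmu-miR-204-5p with the 3p arms of the same hairpins, mmu-miR-211-3p and mmu-miR-204-3p. They were chosen by name, as the miRNAs known from melanocytes, and are 4 of the 1079 mouse miRNAs on the arrays. RNA came from flank tumors of male C57BL/6 mice, 7 on chow with 4% curcumin and 6 on standard chow, with 1 array per tumor. All mice had been injected under the skin with B78H1 cells, a line of amelanotic (unpigmented) mouse melanoma cells cloned from B16 melanoma. The curcumin diet began 14 days before the injection, and tumor growth was followed for 28 days. The methods state that cells went into both flanks of 7 and 6 mice, and the labels tie no tumor to a flank or a mouse. That each tumor came from a mouse of its own is assumed from these numbers, and all tests below treat the 13 tumors as independent. The model is therefore 1 clonal line in 1 host strain and sex, and the tumors also hold host cells.

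miR-211 is known as the miRNA of the pigment cell lineage. Its hairpin lies within Trpm1, a gene for a cation channel of melanocytes that the transcription factor MITF switches on, and both are made from the same transcript. miR-204 is a close relative encoded within Trpm3 and is known from the retinal pigment epithelium and other tissues. A hairpin is cut into a 5p and a 3p arm. The arm that is loaded into the silencing complex finds its target mRNAs mainly by its seed, and the other arm is usually degraded.

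The sequences are shown because the arms decide what the probes could tell apart. They are RefSeq sequences (GRCm38.p6), written from 5′ to 3′, with the seed (bases 2 to 8) in capitals.
mmu-miR-211-5p: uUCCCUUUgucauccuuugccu
mmu-miR-204-5p: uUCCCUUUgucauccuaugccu
mmu-miR-211-3p: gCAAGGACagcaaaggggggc
mmu-miR-204-3p: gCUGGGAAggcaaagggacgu
Both 5p arms carry the seed UCCCUUU and are identical in 21 of 22 bases. The single difference is U17A, counted from 1 at the 5′ end of mmu-miR-211-5p, with the base of mmu-miR-204-5p last. They share a run of 16 bases, whereas the longest run that mmu-miR-211-5p shares with any other array miRNA matched to RefSeq is 8 bases. Of the 1079 array names 840 matched a RefSeq mature miRNA, and among them no other miRNA carried this seed. The 3p arms have different seeds and are identical in 14 of 21 positions.

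The hairpins show how the arms lie in the precursor, with the mature arms in capitals. Mir211 is at chr7:64205806-64205911 on the plus strand, inside Trpm1 (chr7:64153835-64269772, plus strand). Mir204 is at chr19:22750605-22750672 on the plus strand, inside Trpm3 (chr19:22137797-22995410, plus strand). The gene table used here has no exon boundaries.
Mir211: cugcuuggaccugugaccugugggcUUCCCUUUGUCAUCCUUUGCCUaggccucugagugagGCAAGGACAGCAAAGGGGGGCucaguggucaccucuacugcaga
Mir204: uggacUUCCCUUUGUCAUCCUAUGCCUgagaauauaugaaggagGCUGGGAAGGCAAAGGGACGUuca

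The 13 arrays lay on 2 slides, the first with 3 curcumin and 2 control tumors and the second with 4 of each. On both slides the control tumors took the first row of array positions and the curcumin tumors the second, so position and diet cannot be told apart. Between 272 and 412 mouse miRNAs were detected per array, and the summed signal per array ranged from 114095 to 281508, both lowest in curcumin tumor 5. Values are given on 2 scales. The summed signal is the background-subtracted brightness of all probes of a miRNA, and the log2 value is its logarithm after quantile normalization, which gives every array the same distribution. Values at or below 0 were set to the smallest positive value, −7.03 on the log2 scale, called the floor here. Diets were compared with limma, with Benjamini-Hochberg adjustment over all 1079 miRNAs and a threshold of 0.05. By this test 171 miRNAs (15.8%) differed between the diets, 81 (7.51%) lower and 90 (8.34%) higher in curcumin tumors.

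mmu-miR-211-5p was lower in curcumin tumors. In the control tumors 1 to 6 its log2 values were 9.12, 9.61, 9.12, 9.66, 8.26 and 9.72, and it was detected in all of them. In the curcumin tumors 1 to 7 its log2 values were 3.88, 1.75, 7.42, 1.59, 9.27, 1.54 and 5.91, and it was detected in tumors 1, 3, 5 and 7 only. Curcumin tumor 5 lay among the controls, tumors 3 and 7 below them, and tumors 2, 4 and 6 were not detected, so the groups overlapped through 1 tumor. Of all miRNAs 5.47% did not overlap between the diets, and 1.39% were lower in curcumin tumors without overlap. On the scale of summed signals, before normalization, the groups did not overlap. The 6 controls lay between 391 and 814, whereas the curcumin tumors 1 to 7 had 15.1, 3.21, 140.3, 2.96, 300.1, 3.08 and 65.6. The shares of miRNAs without overlap were counted after normalization and not on this scale. The array of curcumin tumor 5 was also dim as a whole, with a sum over all miRNAs of 114095, compared with 150272 to 244666 in the controls.

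The mean log2 value of mmu-miR-211-5p was 4.48 ± 3.12 (SD, n = 7) in curcumin and 9.24 ± 0.55 (SD, n = 6) in control tumors. The log2 fold change was −4.76 (SE 1.28) with an adjusted p-value of 0.0305 by limma. An exact two-sided permutation test, with 1716 ways to split the tumors, gave p = 0.00758. Since 3 curcumin tumors were not detected, the size of this difference rests in part on signals at the background. In bulk RNA, fewer melanoma cells and less of the miRNA per cell cannot be told apart. Within slide 1 the log2 fold change was −5.01 (adjusted p = 0.426) and within slide 2 it was −4.61 (adjusted p = 0.324). With the slide as a block it was −4.76 (adjusted p = 0.0430).

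The call of mmu-miR-211-5p lay close to the threshold. When each array was left out in turn, the log2 fold change stayed between −5.54 and −4.25, and the adjusted p-value rose above 0.05 in 8 of 13 cases. These were the fits without curcumin tumor 1 (0.0607), curcumin tumor 2 (0.0635), curcumin tumor 6 (0.0622), control tumor 1 (0.0510), control tumor 2 (0.0626), control tumor 3 (0.0505), control tumor 4 (0.0609) and control tumor 6 (0.0505). Without curcumin tumor 5 the log2 fold change was −5.54 (adjusted p = 0.00387).

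**Figure D1:**
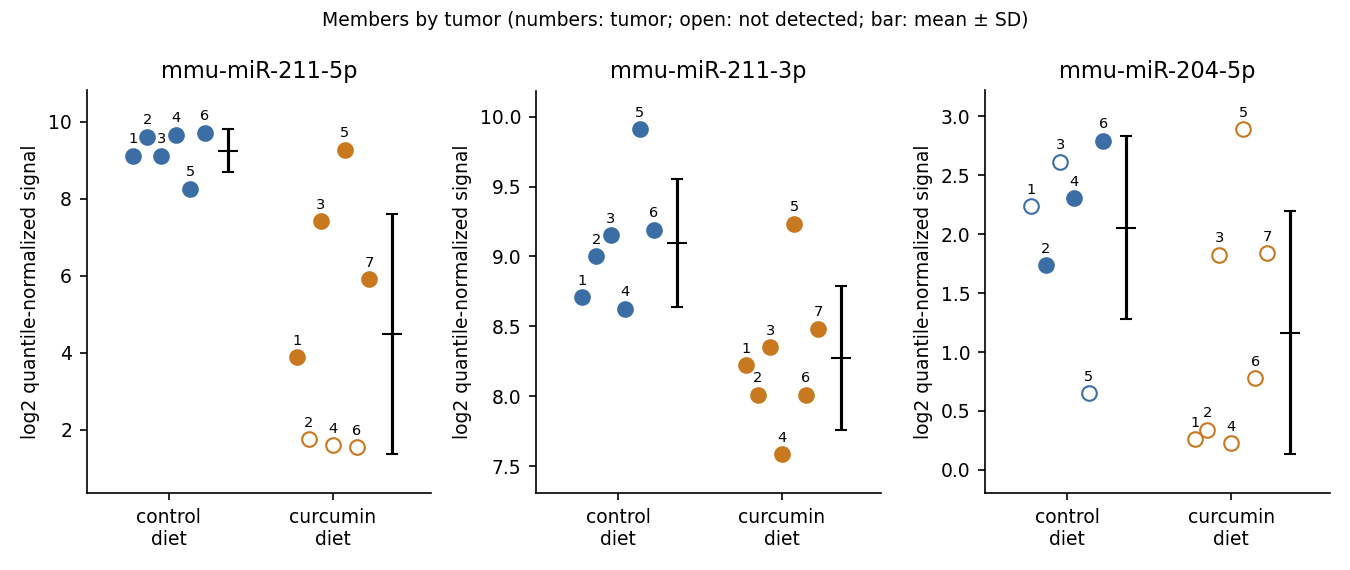
log2 quantile-normalized signal (vertical axes, a different range in each panel) of mmu-miR-211-5p, mmu-miR-211-3p and mmu-miR-204-5p in 6 control and 7 curcumin tumors. Each point is 1 tumor with its number, open points were not detected, and bars are means ± SD. Curcumin tumor 5 lies among the controls for both arms of miR-211 and above them for mmu-miR-204-5p, where it was not detected and its summed signal before normalization (2.31) was below every control (3.16 to 6.13), and mmu-miR-211-5p spans 1.54 to 9.27 in the curcumin tumors.

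Each of the 4 probes of mmu-miR-211-5p was lower in curcumin tumors. The probes have 10 spots each on every array, and all spots of all 4 probes were well above background in all 6 controls. On probe A_54_P1469 the signals of control tumors 1 to 6 were 200.6, 332, 201.5, 290.5, 164 and 271.2. On the same probe the curcumin tumors 1 to 7 had 5.85, 0.917, 57.4, 0.900, 123.4, 1.07 and 27.0. Curcumin tumors 5, 3, 7 and 1 were the highest of their group in this order, as in the normalized sum. None reached the lowest control on these signals, which were not normalized. In curcumin tumors 2, 4 and 6 no spot of this probe was well above background.

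With each array scaled to the 75th percentile of the probes of miRNAs detected on all arrays, the log2 difference between the diets was −5.20 for A_54_P1469, −5.13 for A_54_P1467 and −4.93 for A_54_P1468. The exact permutation p was 0.00699 for each of these 3 probes. For the dimmest probe, A_54_P1466, the log2 difference was −3.81 (exact permutation p = 0.00466). Before scaling, its control signals lay between 7.58 and 18.0 and its curcumin signals between 0.221 and 6.48. On this probe all spots were well above background in 2 of 7 curcumin tumors, compared with 4 of 7 on the other 3 probes. After scaling, the groups overlapped on each of the 4 probes.

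**Figure D2:**
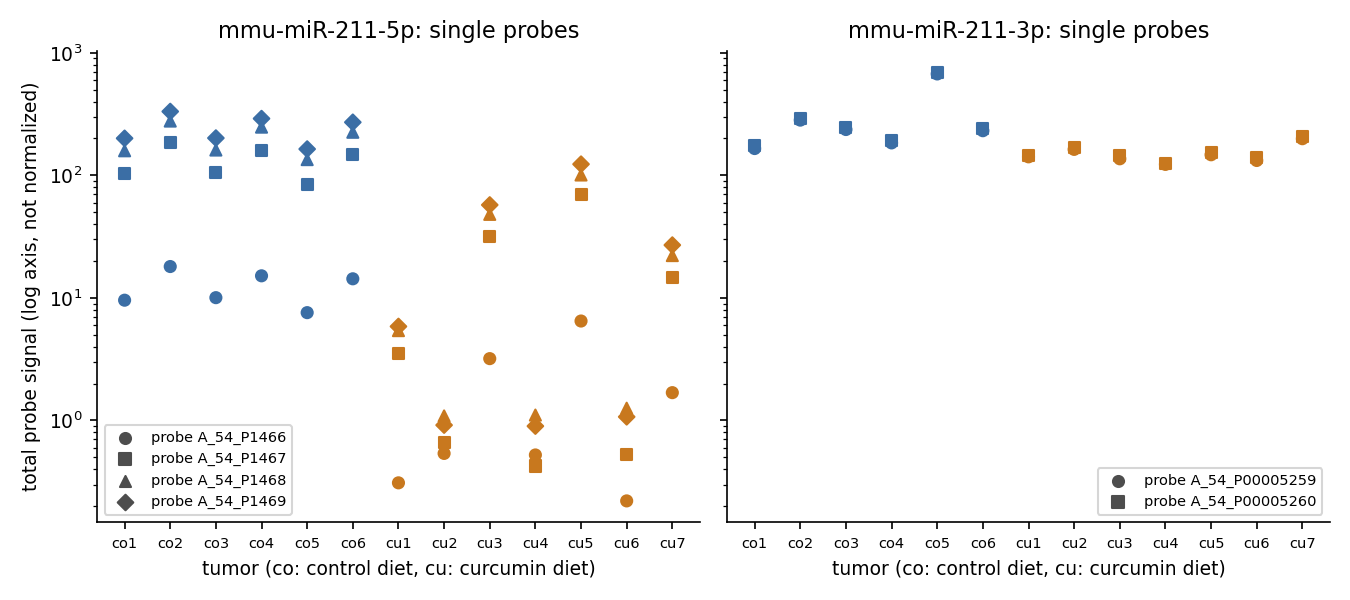
Total probe signal (log axis, not normalized) of the 4 probes of mmu-miR-211-5p (left) and the 2 probes of mmu-miR-211-3p (right) in each tumor, control tumors in blue and curcumin tumors in orange. All probes of mmu-miR-211-5p drop in curcumin tumors 1, 2, 4 and 6, in which both probes of mmu-miR-211-3p stay at 122.9 or above.

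mmu-miR-211-3p, the arm cut from the other side of the same hairpin, was detected in all 13 tumors. All 20 spots of both its probes were well above background on every array. Its log2 values were 8.71, 9.0, 9.15, 8.63, 9.91 and 9.19 in control tumors 1 to 6. In curcumin tumors 1 to 7 they were 8.22, 8.01, 8.35, 7.59, 9.24, 8.01 and 8.48. On this scale curcumin tumor 5 alone again lay within the range of the controls, and the other 6 curcumin tumors lay below the lowest control. Before normalization this was not so. The summed signal of curcumin tumor 5 (300.1) was then below every control (339.5 to 1367), and that of curcumin tumor 7 (405.2) was within their range.

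The mean of mmu-miR-211-3p was 8.27 ± 0.51 (SD, n = 7) in curcumin and 9.10 ± 0.46 (SD, n = 6) in control tumors. The log2 fold change was −0.83 (SE 0.27), and the adjusted p-value of 0.0574 by limma missed the threshold. The exact permutation test of this miRNA alone gave p = 0.0117. Without curcumin tumor 5 the log2 fold change was −0.99 with an adjusted p-value of 0.0116, and with the deposited log2 values it was −0.82 with an adjusted p-value of 0.0328. Within the slides the log2 fold change was −0.66 (slide 1, adjusted p = 0.179) and −0.89 (slide 2, adjusted p = 0.442). The 2 probes differed by −0.98 and −0.99 between the diets after scaling (exact permutation p = 0.00932 each), and the groups overlapped on both.

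The signals read for the arms of the miR-211 hairpin differed in how far they were lower. This comparison was chosen after the values were seen. It rests on the log2 value of the 5p arm minus that of the 3p arm in the same tumor. This quantity says nothing of which arm is more abundant, since the arms were read by different probes, but it can be compared between the diets. It was −3.79 ± 2.67 (SD, n = 7; range −6.47 to 0.03) in curcumin and 0.15 ± 0.94 (SD, n = 6; range −1.65 to 1.03) in control tumors. The difference was −3.94 (exact permutation p = 0.0111). It was −4.35 on slide 1 and −3.72 on slide 2, where the exact permutation p-values were 0.2 and 0.0857 (the smallest that the splits within a slide allow are 0.1 and 0.0286). In curcumin tumors 2, 4 and 6, where the 5p arm was not detected, the summed signals of the 3p arm were 332, 249 and 272. Among the controls, tumor 5 had the highest signal of the 3p arm, 1367, and the lowest of the 5p arm. Whether the probes of either arm also bound other RNAs was not tested.

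The curcumin tumors were more spread in mmu-miR-211-5p than the controls. The mean distance of a tumor from the median of its own diet group was 2.53 in curcumin and 0.41 in control tumors on the log2 scale. The difference of 2.12 had an exact permutation p of 0.00699. Each distance was taken once from the median of the tumor's own diet group and was not taken anew for each split. The permutation p-values for spread are therefore approximate. The SD was 5.64 times as large in the curcumin group. This SD includes the 3 undetected tumors. Over the 304 miRNAs that every array of one diet group or of both detected, the median SD was 0.463 in curcumin and 0.436 in control tumors, and 179 had a higher SD in curcumin tumors. Without curcumin tumor 5 the difference in spread was 1.62 (exact permutation p = 0.00649). After normexp background correction, which adds an offset of 50 and compresses dim signals, it was 0.66 (exact permutation p = 0.277), and the log2 fold change was −2.87 (adjusted p = 0.0113).

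**Figure D3:**
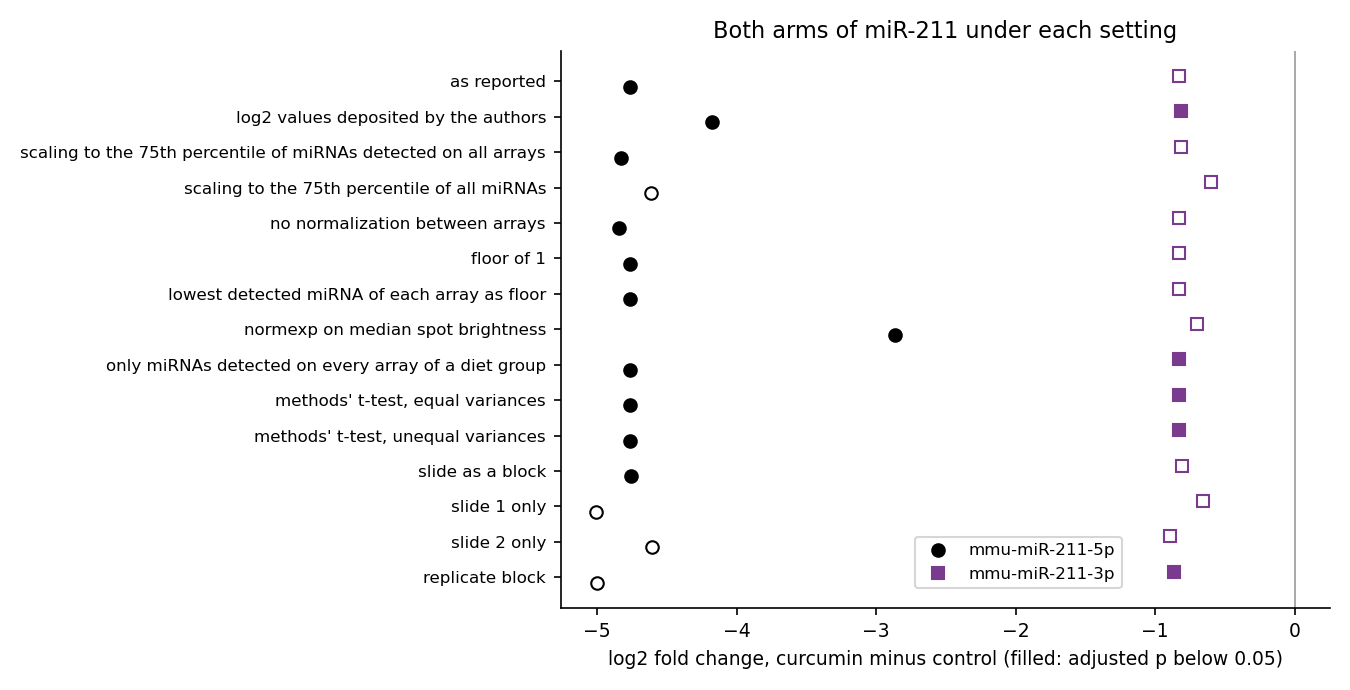
log2 fold change (curcumin minus control, horizontal axis) of mmu-miR-211-5p (circles) and mmu-miR-211-3p (squares) under each setting of the processing. Filled symbols have an adjusted p-value below 0.05. mmu-miR-211-5p lies between −5.01 and −2.87 and mmu-miR-211-3p between −0.89 and −0.60.

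mmu-miR-204-5p was close to the background throughout. It was detected in no curcumin tumor and in 3 controls (tumors 2, 4 and 6). Its 2 probes had 20 spots each, of which 8 of 240 were well above background in the controls and 4 of 280 in the curcumin tumors. The log2 values were 2.24, 1.74, 2.62, 2.30, 0.65 and 2.80 in control tumors 1 to 6. In curcumin tumors 1 to 7 they were 0.26, 0.34, 1.83, 0.23, 2.89, 0.78 and 1.84. The groups overlapped, and curcumin tumors 3, 5 and 7 were the highest of their group, as they were for mmu-miR-211-5p.

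The mean of mmu-miR-204-5p was 1.17 ± 1.03 (SD, n = 7) in curcumin and 2.06 ± 0.78 (SD, n = 6) in control tumors. The log2 fold change of −0.89 (SE 0.51) did not pass the threshold (adjusted p = 0.346 by limma, exact permutation p = 0.111). No curcumin array and 3 of 6 control arrays detected it, so this is a difference of signals near the background. It was −0.31 with the deposited log2 values (adjusted p = 0.249) and −0.05 with normexp (adjusted p = 0.357). On the brighter probe, A_54_P2396, the control signals lay between 2.72 and 4.92 and the curcumin signals between 0.607 and 3.13. After scaling, the log2 difference between the diets on this probe was −1.59 (exact permutation p = 0.00816), and the groups overlapped. No array of either diet had all 20 spots of this probe well above background, so this too is a difference of signals near the background. Whether the probes for mmu-miR-204-5p also bound mmu-miR-211-5p was not tested. mmu-miR-204-3p was at the floor on all 13 arrays, and none of its 520 spots was well above background, so no fold change is given.

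miR-211 is made under the control of MITF, and other miRNAs are known to bind the Mitf mRNA itself. Of 8 such miRNAs 2 were higher in curcumin tumors and 0 were lower, where 8.34% of all miRNAs were higher and 7.51% lower. At an unadjusted p-value below 0.05 by limma these counts were 4 and 0. The shares over all miRNAs are a low base, since miRNAs at the floor on every array cannot pass. In either direction, a larger share passed among the miRNAs detected on all arrays, to which 5 of the 8 belong. The counts therefore cannot show that the list stands out. The median log2 fold change of the 8 was 0.43, compared with 0 over all miRNAs and −0.09 over those detected on all arrays. The list was put together with results of these data known. mmu-miR-155-5p, a miRNA known from activated immune cells, was higher and did not overlap between the diets (4.55 to 6.57 in curcumin, 2.71 to 4.05 in control tumors). Its log2 fold change was 1.74 (SE 0.35, adjusted p = 0.00749 by limma), and 4.08% of all miRNAs were higher without overlap.

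The other, mmu-miR-218-5p, was detected in 4 curcumin tumors and in no control. It was at the floor in 4 controls, so its log2 fold change of 7.17 (adjusted p = 0.00407 by limma) depends on the floor. It was 2.14 with a floor of 1 (adjusted p = 9.55e-05), 0.91 with the deposited values (adjusted p = 0.000279) and 0.12 with normexp (adjusted p = 0.00295). mmu-miR-148a-3p had 2 controls at the floor and did not overlap between the diets (exact permutation p = 0.000583). Its log2 fold change was 5.43 (adjusted p = 0.0574) and also depended on the floor. It was 3.08 with a floor of 1 (adjusted p = 0.00491), 2.43 with the lowest detected signal of each array as the floor (adjusted p = 0.000973) and 2.09 with the deposited values (adjusted p = 0.000604). For mmu-miR-182-5p the log2 fold change was 0.66 (adjusted p = 0.0609). For mmu-miR-148b-3p, mmu-miR-340-5p and mmu-miR-101a-3p the log2 fold changes were 0.20, −0.12 and 0.18, and none passed the test. mmu-miR-137-3p was at the floor on every array. The count of 2 was 4 with the deposited log2 values. Without normalization between arrays it was 0 by limma, with 3 at an unadjusted p-value below 0.05.

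Lists of miRNAs known from other cell types were summed in each tumor, with no test of the lists. Of all miRNAs 8.34% were higher by the test and 4.08% were higher without overlap. These shares include miRNAs at the floor on every array, so they are a low base for well detected members. The counts of members that passed therefore cannot show that a list stands out. How often sums of other miRNAs would not overlap was not tested. The summed level of 7 epithelial miRNAs was 7.77 to 10.76 on the log2 scale in curcumin and 1.73 to 7.37 in control tumors, without overlap. In the curcumin tumors most of it was mmu-miR-205-5p, the 1 member of the list that passed the test, while 5 of the 7 were detected on no array and mmu-miR-200a-3p and mmu-miR-200b-3p were at the floor on all of them. The sum of 4 fibroblast miRNAs was 9.45 to 10.61 in curcumin and 7.35 to 8.98 in control tumors, without overlap, and 3 of the 4 passed the test, all higher. In both lists curcumin tumor 5, the one with mmu-miR-211-5p at the level of the controls, had the lowest sum of its group (7.77 and 9.45).

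The sums of the other lists overlapped between the diets. The 6 blood cell miRNAs summed to 8.94 to 10.57 in curcumin and 7.37 to 9.96 in control tumors. Of these 6, 4 passed the test, all higher and without overlap, where 8.34% of all miRNAs were higher and 4.08% without overlap. mmu-miR-451 and mmu-miR-144-3p went the other way and did not pass (log2 fold changes −0.82 and −1.07). mmu-miR-451 reached 9.42 in a control tumor, and mmu-miR-144-3p was detected in 2 control tumors only. For 2 endothelial miRNAs the sums were 7.99 to 9.68 in curcumin and 7.10 to 8.14 in control tumors. For 2 smooth muscle miRNAs they were 6.30 to 6.80 and 5.54 to 6.68. No member of either list passed the test in limma (2 and 0 at an unadjusted p-value below 0.05). The 4 skeletal muscle miRNAs summed to 4.86 to 9.91 and 4.55 to 9.25, and 1 of them passed the test, as higher. Curcumin tumor 5 had the lowest sum of its group in none of these lists. Its sums were 9.27 (blood cell), 8.33 (endothelial), 6.31 (smooth muscle) and 9.91 (skeletal muscle, the highest of all tumors). The part of these cell types in the values of mmu-miR-211-5p was not tested.

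**Figure D4:**
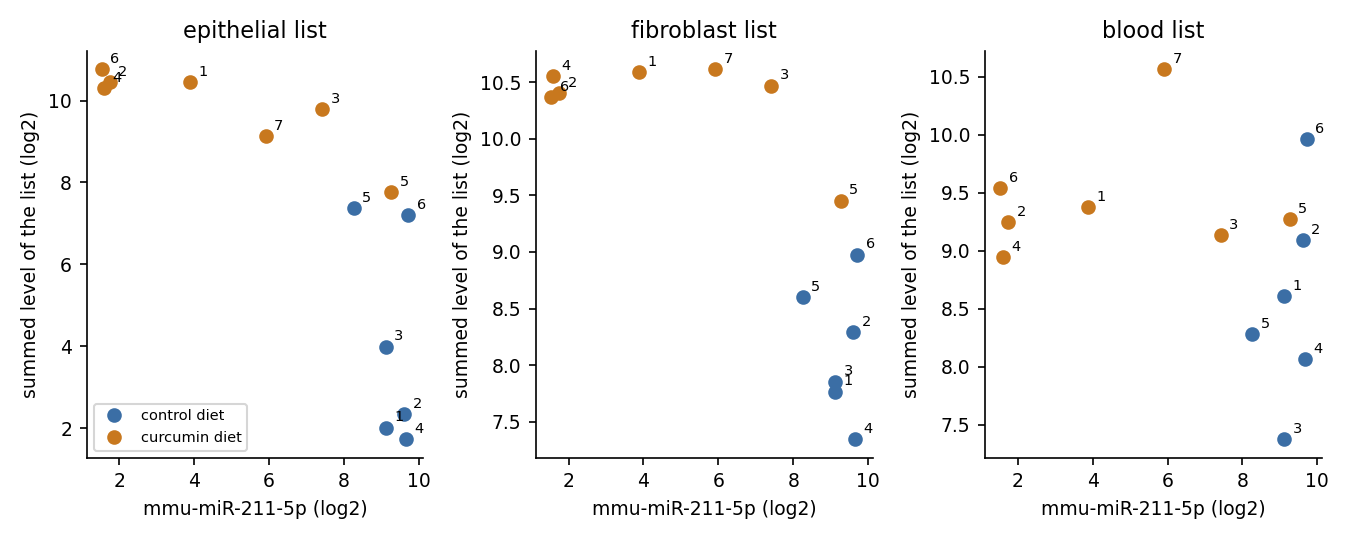
Summed level (log2, vertical axes) of the epithelial, fibroblast and blood cell miRNAs against mmu-miR-211-5p (log2, horizontal axes) in each of the 7 curcumin and 6 control tumors, with tumor numbers. The epithelial and fibroblast sums do not overlap between the diets, and curcumin tumor 5 is the curcumin tumor nearest to the controls in both.

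To see which miRNAs followed mmu-miR-211-5p from tumor to tumor, the mean of each diet group was subtracted and the 243 miRNAs detected on all arrays were ranked by Pearson's r over the 13 tumors. The ranking is a description, since the points share the normalization of their arrays and several rest on curcumin tumor 5. The most alike were mmu-miR-5097 (r = 0.87), mmu-miR-18a-5p (0.81), mmu-miR-130b-3p (0.78), mmu-miR-1224-5p (0.76) and mmu-miR-92a-3p (0.76). Without curcumin tumor 5 these values were 0.77, 0.61, 0.53, 0.50 and 0.50. Spearman's rho over the 7 curcumin tumors alone was between 0.79 and 0.96 for the 5 miRNAs. mmu-miR-211-3p came 26th, with r = 0.61 (0.32 without curcumin tumor 5), and its rho in the curcumin tumors was 0.90.

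At the opposite end were mmu-miR-503-5p (r = −0.89), mmu-miR-450a-5p (−0.86), mmu-miR-24-3p (−0.85), mmu-miR-210-3p (−0.85), a miRNA known to rise in low oxygen, and mmu-miR-100-5p (−0.84). Without curcumin tumor 5 these lay between −0.86 and −0.69. mmu-miR-503-5p was 6.86 to 7.69 in the other curcumin tumors, 5.83 in curcumin tumor 5 and 5.48 to 5.74 in the controls. mmu-miR-210-3p was an exception to the pattern of curcumin tumor 5, which had 8.53, within the range of the other curcumin tumors (8.45 to 9.24). Between the diets mmu-miR-210-3p was lower in curcumin tumors, as was mmu-miR-211-5p (log2 fold change of mmu-miR-210-3p −0.55, adjusted p = 0.0288 by limma). The log2 fold changes of the others at this end were positive (0.40 to 1.52).

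**Figure D5:**
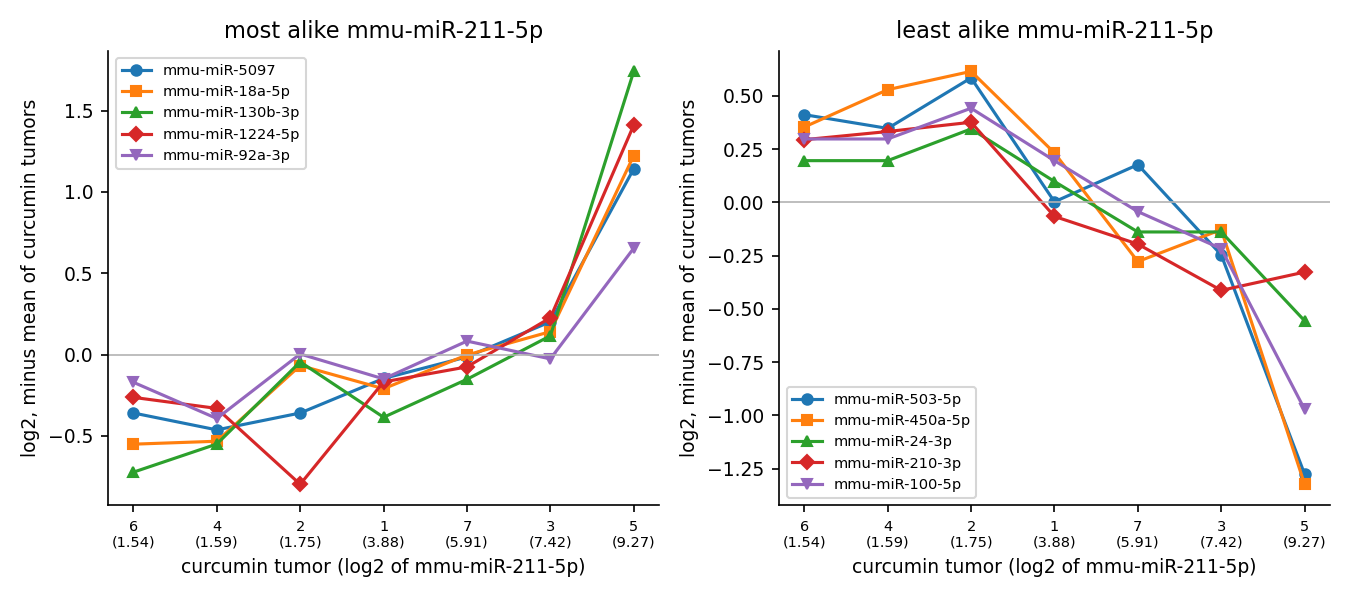
log2 values minus the mean of the curcumin tumors (vertical axes) of the 5 miRNAs most alike (left) and least alike (right) mmu-miR-211-5p, in the 7 curcumin tumors ordered by mmu-miR-211-5p (its log2 value in parentheses). Curcumin tumor 5 stands apart at the right end of both panels, except for mmu-miR-210-3p.

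Curcumin tumor 5 also stood nearer to the controls in other miRNAs. Of the miRNAs that differed between the diets and were detected on all arrays, 74 (73.3%) were closer in this tumor to the mean of the controls than to that of the other curcumin tumors. For the other 6 curcumin tumors this number was between 1 and 12. Its array had the lowest summed signal and the fewest detected miRNAs of the series, and the part of this in its values was not tested.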

How the data were processed

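Total RNA of 7 curcumin and 6 control tumors was hybridized by the authors in 1 color to Agilent mouse miRNA arrays. Groups and tumor numbers are those of the sample labels. The deposited intensity values came from Feature Extraction (version 10.10.1.1, per the labels and headers), which subtracts the background, adds up the spots of a probe and flags detected miRNAs. A table of log2 values, which the authors deposited and the methods describe as quantile normalized, was used as an alternative only. For the main values the total probe signals of each of 1079 mouse miRNAs were summed, quantile normalized over the 13 arrays, floored at the smallest positive value (0.00765, applied to 7215 of 14027 values) and log2 transformed. The 57 virus miRNAs were left out. One of the other floors was the lowest gene signal of a detected miRNA on each array, read on the normalized scale.

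Curcumin and control tumors were compared in limma 3.58.1 under R 4.3.3 by a moderated two-sided test (lmFit, eBayes) without covariates, across all miRNAs. Single values had an exact permutation test (SciPy 1.17.1, 1716 splits), which cannot give a p below 0.000583. Fits without 1 array repeated the normalization without it. Both tests were tested on simulated data. The p-values set a difference between the diets against the spread between these 13 tumors, which are taken as independent. The number of arrays limits the precision. Alternatives were the deposited values, scalings to the 75th percentile, no normalization, other floors, normexp, only detected miRNAs, the methods' t-test, the slide and the tumor number as blocks, single slides and leaving out each array.

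Named miRNAs are the 4 members, the 8 of a list of miRNAs reported to bind the Mitf mRNA, and the 5 most and 5 least alike mmu-miR-211-5p, with lists of miRNAs known from other cell types. The members and lists were chosen with earlier results of these data known. The arrays were designed on another genome assembly, and all sequences and coordinates are those of RefSeq on GRCm38.p6. Tumor growth, qRT-PCR, cell culture and protein data were not analysed here.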

Additional observations from a re-analysis of the deposited data

Results flagged for a closer look

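Among the miRNAs named, 42 groups of tumors were examined for a single tumor far from the others, and 4 such values were found, where chance gives about 1 in 20. Curcumin tumor 5, which had the highest mmu-miR-211-5p of its group, gave 3 of them, all in miRNAs chosen as most alike mmu-miR-211-5p. Their likeness rests in part on this tumor, so the choice of these miRNAs favors such values in it and the chance rate does not hold for them. Its log2 value was 11.80 for mmu-miR-5097, where the next highest curcumin tumor had 10.86. It was 7.54 for mmu-miR-18a-5p, where the next highest had 6.45. For mmu-miR-130b-3p it was 7.97, and the next highest was 6.34. The fourth was control tumor 5, which had the lowest mmu-miR-92a-3p of the controls at 8.30, with the next at 8.66. The same tumor had the lowest mmu-miR-211-5p and the highest mmu-miR-211-3p of the controls. The values of the members themselves, both arms of miR-211 and mmu-miR-204-5p, were not far enough from those of their group to be listed here.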

How the results depend on the processing

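The log2 fold change of mmu-miR-211-5p was negative under all 14 alternatives. It missed the threshold of 0.05 with the 75th percentile of all miRNAs as the scale (−4.61, with an adjusted p of 0.0532), on slide 1 (−5.01) and slide 2 (−4.61) alone, and with the tumor number as a block (−5.0, adjusted p = 0.123). Leaving out 1 array gave −5.54 to −4.25. mmu-miR-211-3p passed the threshold with the deposited values (−0.82), when only detected miRNAs were tested (−0.83, adjusted p = 0.0175), in the methods' t-test, whether variances were taken as equal or unequal (−0.83 each time, adjusted p = 0.0403 and 0.0432) and with the number as a block (−0.86, adjusted p = 0.0252). It also passed without curcumin tumor 5, and leaving out 1 array gave −0.99 to −0.65. mmu-miR-204-5p passed under none of its 13 alternatives (−1.30 to −0.05) and in no fit without 1 array (−1.24 to −0.72).

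Of all miRNAs 171 passed the threshold, but 105 when scaled to the 75th percentile of all, 49 without normalization, 34 on slide 1, 3 on slide 2 and 67 with the block. Leaving out 1 array gave 102 to 184, with over 1.5 times fewer than 171 without curcumin tumors 1 (113), 2 (112) and 6 (105) and control tumors 2 (102) and 4 (108). Of the Mitf-binding list 4 passed with the deposited values and with the methods' t-test (equal variances), 1 on slide 1, and 0 in limma without normalization and on slide 2 (3 and 2 at an unadjusted p-value below 0.05), with 2 to 3 when 1 array was left out. mmu-miR-148b-3p turned negative after scaling to the 75th percentile of miRNAs detected on all arrays (−0.012) and without normalization (−0.022).

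The difference in spread of mmu-miR-211-5p was 0.66 with normexp and 1.62 to 2.56 without 1 array. The difference between the arms was −4.35 and −3.72 within the slides and −4.55 to −3.49 without 1 array. The causes were not tested. The deviations of tumors with the same number were weakly correlated (from −0.30 to 0.20), which cannot show whether the numbers pair the tumors. The labels state no pairing. The normexp setting planned on mean spot brightness could not be run, since the files used hold median brightness, and was replaced after seeing the data, as were the arm comparison and the unscaled probes. Values near the background limit mmu-miR-204-5p and the undetected curcumin tumors of mmu-miR-211-5p.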
